A study of Mus musculus and Mus musculus x Mus spretus with 14 samples.

Results

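miR-203 and its passenger strand, miR-203*, were followed across 13 mouse skin cell lines profiled on Exiqon miRNA arrays. The pair was taken by name. A probe belonged if 1 of the slash-separated names in its identifier was mmu-miR-203 or mmu-miR-203*, which gave 2 of the 576 probes that name a mouse miRNA and 2 of 1271 probes in all. miR-203 was read by a probe named for mouse, human and rat miR-203, and miR-203* by a probe named for the mouse strand alone. Each line was hybridised on 1 array, except A5, whose 2 arrays were averaged, so a line counts as 1 sample and the tests measure how far lines differ.

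The series title places miR-203 in the prognosis of cutaneous squamous cell carcinoma, and the lines represent stages of skin carcinogenesis in mice, most of them induced with the carcinogen DMBA, alone or with the tumour promoter TPA. The malignant spindle group, whose cells have lost epithelial shape, held 5 lines. A5 and D3 came from a carcinoma of a DMBA-treated hybrid of M. spretus and CBA, CARB and CARC from DMBA/TPA-treated NIH/Swiss mice, and H11 was a single-cell clone of SN161, which grew from a metastasis to a lymph node in an F1 hybrid of 129 and NIH. The malignant squamous group held 3 lines: B9, a clonal relative of A5 and D3 from the same tumour, E4, another single-cell clone of SN161, and PDVC57, grown from a tumour that PDV cells, DMBA-transformed keratinocytes of C57 mice, formed in such mice. The non-malignant squamous group held 5 lines. C5N was cloned from MCA3D cells of a BALB/c mouse, C50 is an immortalized keratinocyte line, NK arose by spontaneous immortalization in a p53 null mouse, and MSCP1 and P6 are papilloma lines from DMBA/TPA-treated crosses of Mus spretus and CBA. All lines were grown in the same serum-containing medium. Strain, carcinogen and phenotype varied together and cannot be told apart, and lines that share a tumour are not independent samples.

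miR-203 is a miRNA of stratified epithelium. In mouse epidermis it is low in basal progenitors and high in the suprabasal layers, where it represses the basal transcription factor p63 and favours exit from the cell cycle. A miRNA is cut from a hairpin as a duplex. One strand, the guide, is usually loaded into Argonaute and pairs with targets through its seed, and the other, the passenger or star strand, is mostly degraded.

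The mature strands are shown because all results below turn on them. They are given 5′ to 3′ from RefSeq on GRCm38.p6, with the seed (bases 2 to 8) in capitals. Current names are miR-203-3p for the guide and miR-203-5p for the passenger strand.
miR-203 (chr12:112130927-112130948, plus strand): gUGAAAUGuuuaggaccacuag
miR-203* (chr12:112130889-112130910, plus strand): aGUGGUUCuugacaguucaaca
Both lie in the 76-base Mir203 hairpin at chr12:112130880-112130955, shown with both mature strands in capitals.
Mir203 hairpin: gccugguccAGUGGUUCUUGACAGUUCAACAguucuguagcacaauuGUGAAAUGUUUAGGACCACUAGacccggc
RNAfold gave this hairpin a minimum free energy of -35.1 kcal/mol, with 18 of the 22 guide bases and 6 of its 7 seed bases paired to the passenger strand, and 16 bases between the strands.

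No protein-coding gene of RefSeq overlaps the hairpin. The nearest are Aspg, which ends 3306 bases before it, and Kif26a, which starts 13018 bases after it. On the opposite strand RefSeq places the gene Gm51289 with the arms of miR-203b, of which miR-203b-5p (chr12:112130927-112130946) is complementary to miR-203 over its bases 1 to 20. Of 1679 mature mouse miRNA names, 0 others carry the seed UGAAAUG of miR-203 and 0 others the seed GUGGUUC of miR-203*, so neither strand belongs to a seed family in that table.

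The values are deposited log2 signals, with scale read from the values and normalization not given in the sources used here. A level is called detected here if it exceeds by over 1 log2 unit the median over 8 negative control probes on that array. That level ran from 7.50 on E4 to 7.67 on A5, and 323 mouse probes exceeded it in at least 1 line. Arrays of 3 lines stood apart: on MSCP1 37 mouse probes were detected, against 119 to 185 on the others, and the median r over probes with every other line was 0.332 for C5N and 0.735 for A5. C5N was also the highest line for 145 of the 576 mouse probes (25.2%), and for 83 of the 253 that were detected in no line. On its empty spots it read 6.62, against 5.97 to 6.23 on the other lines. U6-snRNA-2, a small nuclear RNA read beside the miRNAs, lay between 12.39 and 15.06 in malignant lines and between 10.42 and 13.10 in non-malignant lines. What part these differences have in the results below was not tested, apart from the values given without the 3 lines and the rescaled values given later.

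miR-203 was detected in 2 of 13 lines, the immortalized keratinocyte lines NK and C50. In the spindle lines its log2 level was 6.86 in A5 (6.83 and 6.89 on its arrays), 6.95 in D3, 6.80 in CARB, 7.17 in CARC and 7.13 in H11. The malignant squamous lines had 6.94 in B9, 6.80 in E4 and 7.10 in PDVC57. The non-malignant lines had 7.20 in C5N, 8.27 in C50, 10.16 in NK, 6.84 in MSCP1 and 7.50 in P6. The 8 malignant lines thus fell within 0.37 log2 units of each other, while the non-malignant lines spread over 3.32. MSCP1 lay within the malignant range, and C5N just above CARC, the highest malignant line.

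The passenger strand was detected in 1 line. miR-203* stood at 6.70 in A5 (6.68 and 6.72), 6.56 in D3, 6.19 in CARB, 6.64 in CARC and 6.75 in H11 among spindle lines. Malignant squamous lines had 6.63 in B9, 6.64 in E4 and 6.66 in PDVC57. Non-malignant lines had 7.33 in C5N, 6.83 in C50, 7.68 in NK, 6.80 in MSCP1 and 6.81 in P6. NK was the line above its detection level, and only just, at 7.68 against 7.66. All 8 malignant lines lay below all 5 non-malignant lines, by a gap of 0.06 between H11 and MSCP1, against 0.04 between the arrays of A5.

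**Figure D1:**
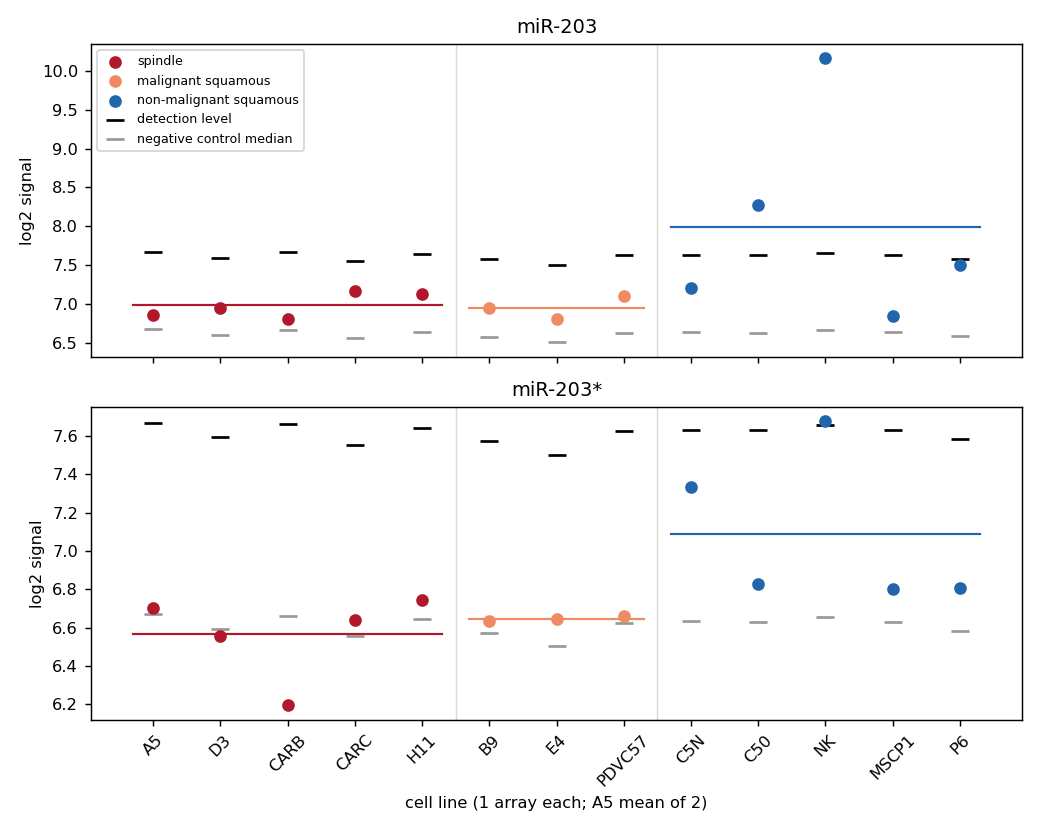
Log2 signal of miR-203 (top) and miR-203* (bottom) on the y axis in each of the 13 lines on the x axis, grouped from left as spindle, malignant squamous and non-malignant squamous; coloured lines are group means, black dashes the detection level and grey dashes the negative control median of each array. NK and C50 are the only lines above detection for miR-203 and NK the only one for miR-203*, whose points otherwise lie between 6.19 and 7.33.

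Over the 13 lines miR-203 ranged over 3.36 log2 units, against a median range of 1.21 for the 576 mouse probes, and 61 probes (10.6%) ranged as widely or more. For miR-203* the range was 1.48, and 226 probes (39.2%) ranged as widely. Ranked by level, NK led for miR-203, 1.89 above C50, which was 0.77 above P6, and P6 was 0.30 above C5N. From C5N downward the largest gap between neighbouring lines was 0.15, about the SD of the 8 malignant lines (0.15), so those 10 lines have no order beyond their spread. For miR-203* NK was 0.35 above C5N, C5N was 0.50 above C50, and CARB lay 0.36 below D3 at the low end, with no other gap above the SD of 0.17 among malignant lines.

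Malignant lines of both morphologies were first compared with non-malignant lines, and both strands were lower in malignant lines. miR-203 averaged 6.97 ± 0.15 in malignant lines (SD, n = 8) and 8.00 ± 1.32 in non-malignant lines (n = 5). The difference was -1.03, with 8 of 8 malignant lines below the non-malignant mean (exact permutation test, 2-sided, p = 0.0117; over the 10 such tests on both strands the adjusted p was 0.0389). miR-203* averaged 6.60 ± 0.17 in malignant lines and 7.09 ± 0.40 in non-malignant lines, a difference of -0.49 (exact permutation p = 0.000777, the smallest these group sizes allow, adjusted p = 0.00777). Adjusted over all mouse probes, limma called 0 of 576 (0%), with 44 at an unadjusted p under 0.05, and gave adjusted p of 0.572 for miR-203 and 0.541 for miR-203*.

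Because the malignant lines were not above detection, their differences from detected lines are bounded rather than measured. The mean detection level of the malignant lines was 7.60, and the non-malignant mean of miR-203 stood 1.31-fold above it. Of the non-malignant lines 2 of 5 were detected, and the other 3 entered that mean at measured values below detection. The 1.31-fold is therefore not a strict lower bound. Without NK the non-malignant mean, 7.45, lay below that detection level, so no fold can be given. Set against that same level, malignant lines were at least 5.90-fold lower than NK and at least 1.59-fold lower than C50. No fold can be given for miR-203* between the groups, and against NK alone the bound was 1.05-fold. With every level below detection raised to it, the malignant minus non-malignant difference was -0.65 for miR-203 (exact permutation p = 0.0513) and -0.03 for miR-203* (exact permutation p = 0.355). The separation of miR-203* therefore rests on levels below detection, apart from that of NK.

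NK carried much of the miR-203 difference. Of the 13 fits without 1 line, 3 (those without PDVC57, C5N or MSCP1) kept the adjusted p for miR-203 in malignant against non-malignant lines below 0.05, while the unadjusted exact permutation p ranged from 0.00202 to 0.0303. Without NK the non-malignant lines averaged 7.45 ± 0.61 (SD, n = 4), and the malignant minus non-malignant difference was -0.49 for miR-203 (exact permutation p = 0.0303, adjusted p = 0.101) and -0.35 for miR-203* (exact permutation p = 0.00202, adjusted p = 0.0202). With C5N, MSCP1 and A5 set aside they were -1.66 for miR-203 and -0.52 for miR-203* (exact permutation p = 0.00833 and adjusted p = 0.0417 for each, the smallest p these sizes allow). Neither strand overlapped between the 7 malignant and 3 non-malignant lines left. How many of all mouse probes were separated in these fewer lines was not counted. MSCP1, set aside here, is the non-malignant line that overlapped with malignant lines for miR-203. With all lines, miR-203* was the 1 mouse probe of 576 (0.174%) with every malignant line below every non-malignant line, and 0 probes were separated the other way. miR-203 was not separated, since MSCP1 lay below 6 malignant lines.

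Next, each malignant morphology was set against the non-malignant lines. Spindle lines averaged 6.98 ± 0.16 for miR-203 (SD, n = 5), a difference of -1.02 from non-malignant lines that did not pass (exact permutation p = 0.0635, adjusted p = 0.159) and that was -0.47 without NK. For miR-203* they averaged 6.57 ± 0.22, a difference of -0.52, and the groups did not overlap (exact permutation p = 0.00794, the smallest possible, adjusted p = 0.0389). Leaving out CARB, the lowest line for miR-203*, gave -0.43 (exact permutation p = 0.0556, adjusted p = 0.185). Separation in that direction was seen for 5 of 576 probes (0.868%) and in the other for 1. limma called 0 probes (0%), with 49 at an unadjusted p under 0.05 and adjusted p of 0.568 for miR-203 and 0.396 for miR-203*.

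Malignant squamous lines averaged 6.95 ± 0.15 for miR-203 (SD, n = 3), a difference of -1.05 from non-malignant lines (exact permutation p = 0.179, adjusted p = 0.255) that was -0.51 without NK. For miR-203* they averaged 6.65 ± 0.01, a difference of -0.44 (-0.30 without NK) with a gap of 0.14 between the groups (exact permutation p = 0.125, adjusted p = 0.208). Separation in that direction was seen for 13 of 576 probes (2.26%), and in the other direction for 15. limma called 0 probes (0%), with 26 at an unadjusted p under 0.05, and gave both strands an adjusted p of 0.844.

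Between the malignant morphologies neither strand differed beyond the spread. Spindle minus malignant squamous was 0.03 for miR-203 (exact permutation p = 0.75, adjusted p = 0.768) and -0.08 for miR-203* (exact permutation p = 0.768, adjusted p = 0.768), where the smallest p that 5 against 3 lines allow is 0.0179. limma gave 0.03 ± 0.54 (SE) and -0.08 ± 0.20, and called 0 probes (0%), with 17 at an unadjusted p under 0.05. With 8 lines below detection for both strands, a difference between these groups was not measurable on this array. Within tumours, spindle minus squamous sister lines differed in miR-203 by -0.08 for A5 against B9, by 0.00 for D3 against B9 and by 0.32 for H11 against E4. The same pairs differed in miR-203* by 0.07, -0.07 and 0.10, so the sign of the difference varied between sister pairs for both strands.

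Against all 8 squamous lines together, spindle lines differed by -0.62 in miR-203 (exact permutation p = 0.264, adjusted p = 0.330) and by -0.35 in miR-203* (exact permutation p = 0.0901, adjusted p = 0.180), with 5 of 5 spindle lines below the squamous mean for each. The squamous group mixes malignant lines at background with the non-malignant lines that include NK and C50. Without NK the differences were -0.26 and -0.25. limma called 0 of 576 probes (0%), with 28 at an unadjusted p under 0.05, and an adjusted p of 0.896 for each strand.

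**Figure D2:**
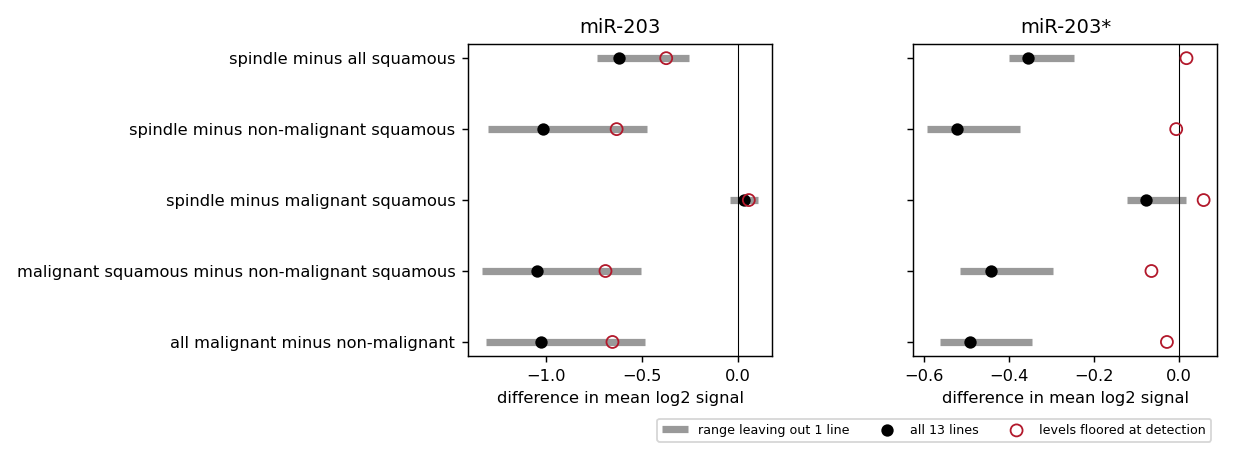
Differences in mean log2 signal (x axis) for the 5 comparisons (y axis), miR-203 left and miR-203* right; filled points use all 13 lines, grey bars span the values when 1 line is left out, and open circles have levels below detection raised to it. For miR-203 4 of the 5 floored values stay below -0.3, and for miR-203* all 5 lie between -0.07 and 0.06.

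Within the non-malignant group the origin of the lines was compared without a test, since an exact permutation test of 2 against 3 lines cannot reach a p of 0.05 and no other test was run. The papilloma lines averaged 7.17 for miR-203 and the immortalized keratinocyte lines 8.54, a difference of -1.37. Leaving out NK moved that difference to -0.56, and leaving out C5N moved it to -2.05. C5N, an immortalized line, had 7.20, below the papilloma line P6 at 7.50, so the origins overlapped.

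The strands of the duplex were then set side by side, as descriptions over lines read on the same arrays. Across 13 lines their levels had a Pearson r of 0.769 and a Spearman rho of 0.709. NK is the highest line of both, and without NK r was 0.357 and rho 0.629. Without NK and C50, the lines farthest from the miR-203 median, r was 0.480 and rho 0.536. Without C5N, MSCP1 and A5 r was 0.926, with NK still among the 10 lines. C50, second for miR-203 at 8.27, had miR-203* at 6.83, near P6 at 6.81. C5N was high in miR-203* and not in miR-203. Its empty spots were also the highest, and over the 13 lines miR-203* had r = 0.642 and rho = 0.385 with the empty spots, against r = 0.144 for miR-203.

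**Figure D3:**
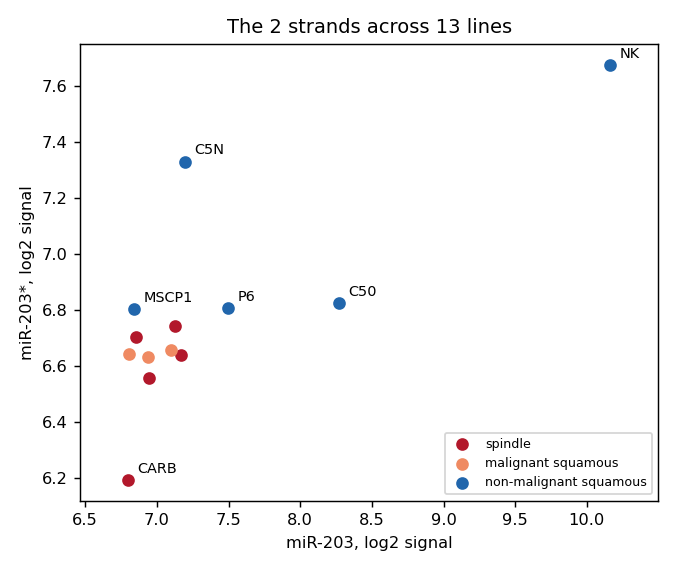
Log2 signal of miR-203 (x axis) against miR-203* (y axis), 1 point per line, coloured by phenotype, with the non-malignant lines and CARB named. NK is highest on both axes at 10.16 and 7.68, C5N is high in miR-203* alone, and the malignant lines form 1 cluster with CARB below it.

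Likeness to other miRNAs was measured by Pearson r over the 13 lines among the 188 mouse probes detected in at least 3 lines. The 5 highest for miR-203 were miR-429 (r = 0.810, rho = 0.363), miR-140* (r = 0.770, rho = 0.407), miR-200a (r = 0.713, rho = 0.648), miR-301a (r = 0.687, rho = 0.505) and miR-140 (r = 0.681, rho = 0.698). miR-429 and miR-200a belong to the miR-200 family, which represses Zeb1 and Zeb2 in epithelial cells, and miR-140 and miR-140* are strands of 1 hairpin. Each r was smaller without NK except that of miR-200a, at 0.734 for miR-429, 0.621 for miR-140*, 0.751 for miR-200a, 0.423 for miR-301a and 0.584 for miR-140. Without NK the 5 highest were all of the miR-200 family, led by miR-200c at 0.794, with miR-200b at 0.755 and miR-141 at 0.719.

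The mature sequences of the closest miR-200 family members show that they share no seed with miR-203, and they are encoded on another chromosome (RefSeq, GRCm38.p6, seed in capitals).
miR-429 (chr4:156053916-156053937, minus strand): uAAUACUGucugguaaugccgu
miR-200a (chr4:156054911-156054932, minus strand): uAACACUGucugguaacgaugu
miR-429 was highest in NK (8.94), followed by C50 (8.57) and P6 (8.01), and miR-200a in C50 (9.89), NK (9.88) and P6 (9.29). These are the same lines that lead for miR-203, in nearly the same order. Both miRNAs were chosen by r with miR-203 over these lines, which favours such a match. In the spindle lines miR-200a lay between 6.53 and 6.94. It lay above that range in all 3 malignant squamous lines, with 8.20 in B9, 7.60 in E4 and 8.93 in PDVC57, whereas miR-203 overlapped between these groups. Of 576 mouse probes, 15 were separated in that direction and 7 in the other. In spindle minus malignant squamous lines limma gave miR-200a -1.55 ± 0.55 (SE, limma adjusted p = 0.990). C5N and MSCP1 were low for miR-429, at 6.76 and 6.93.

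miR-205, the other miRNA of the series title and a marker of stratified epithelium, stood at rank 15 of 188 in likeness to miR-203 (r = 0.524, rho = 0.643). B9 and PDVC57 had miR-205 at 10.94 and 9.87 while their miR-203 was 6.94 and 7.10, below detection. miR-205 was highest in P6 (11.51) and C50 (11.48), above NK (10.45), so the line with the most miR-203 was not the line with the most miR-205. For miR-203* the 5 most alike were miR-140 (r = 0.644, rho = 0.626), miR-32 (0.593, 0.462), miR-200a (0.579, 0.588), miR-148a (0.518, 0.549) and miR-30e* (0.472, 0.429). Without NK miR-140 was at rank 17 (r = 0.453) and miR-200a at rank 21 (r = 0.383), and miR-466c-5p (r = 0.781) and miR-466d-5p (r = 0.777), named after their values were seen, led. Both were highest in C5N, at 13.81 and 11.41. Over the 13 lines their rho with miR-203* was 0.0055 and 0.082. Without C5N, MSCP1 and A5 their r was 0.069 and 0.081.

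**Figure D4:**
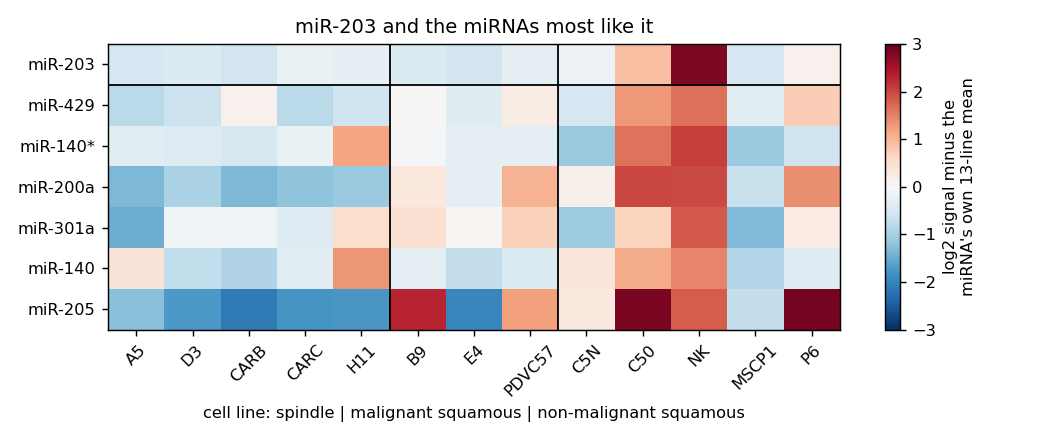
Log2 signal minus each miRNA's own mean over the 13 lines (colour, from -3 to 3) for miR-203, the 5 miRNAs most like it and miR-205 (rows), by line (columns, ordered spindle, malignant squamous, non-malignant squamous). NK and C50 are above the mean in all 7 rows, while B9 and PDVC57 are above it for miR-205 and not for miR-203. The 5 were chosen by r with miR-203 over these lines.

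A list of 15 keratinocyte and epithelial miRNAs, drawn up without miR-203, gives the context. In malignant against non-malignant lines 8 were higher and 7 lower, 0 passed limma, and the median difference was 0.23, against 0.04 over all mouse probes. miR-205 differed by -2.02 ± 0.74 (SE), miR-200a by -1.40 ± 0.44 and miR-125b-5p by 2.11 ± 0.81, each with an adjusted p of 0.541 in limma. In spindle against all squamous lines 5 were higher and 10 lower with a median of -0.42, against 0.00 over all mouse probes, and 0 passed limma. The mean of the list was 7.65 on C5N and 7.86 on MSCP1, below every other line, whose means ran from 8.18 to 10.23. Their miR-203 levels were 7.20 and 6.84. E4, labelled squamous, had miR-205 at 6.69, below its detection level and within the range of the spindle lines, 6.52 to 7.39.

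Markers of other cells were checked beside this. All 6 fibroblast and mesenchymal miRNAs had higher means in spindle lines than in all squamous ones, with a median difference of 0.88 and 0 past limma. All 6 were also higher in malignant than in non-malignant lines, with a median difference of 0.47, against 0.04 over all mouse probes, and 0 past limma. In malignant squamous against non-malignant lines, however, 1 was higher and 5 lower, with a median difference of -0.07. The mean of all 6 lay between 7.15 and 8.60 in spindle lines and between 6.81 and 7.01 in squamous lines. Their part in the miR-203 values was not tested. Of 10 blood, endothelial and muscle miRNAs 7 were detected in no line, and in malignant against non-malignant lines 5 were higher and 5 lower, with 0 past limma. Among the detected ones, miR-142-3p, a blood cell miRNA, averaged 8.20 over the malignant lines and 6.68 over the non-malignant lines. limma, which weighs the malignant phenotypes equally, gave it a difference of 1.45 ± 0.74 (SE, limma adjusted p = 0.653). For miR-142-5p from the same hairpin it gave 1.05 ± 0.57 (limma adjusted p = 0.656). The malignant lines were not alike in this list. The mean of all 10 was 7.55 in H11, 7.41 in D3 and 7.31 in E4. It lay between 6.77 and 6.93 in the other malignant lines and between 6.65 and 6.78 in non-malignant lines. The part of these miRNAs in the miR-203 values was not tested either. In RNA from whole cultures, fewer cells with miR-203 and less miR-203 per cell cannot be told apart.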

How the data were processed

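Per the labels' protocols, a Qiagen miRNA kit gave total RNA, which was labelled with Cy3 by the Exiqon kit and hybridised on miRNA arrays. The values are the authors' deposited log2 signals for 1271 probes on 14 arrays, none missing. The log2 scale was read from the values (5.93 to 15.21). For the scanner, background correction, normalization and centring, the method is not given in the sources used here. The columns were therefore used as deposited. Both A5 arrays (r = 0.992 over all 1271 probes, controls included) were averaged.

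Each strand was compared between phenotypes by an exact 2-sided permutation test over lines, and p-values were adjusted over 10 tests (Benjamini-Hochberg). limma (3.58.1, R 4.3.3; lmFit, then eBayes with trend) was fitted to all 576 mouse probes and 13 lines, adjusted over all probes at 0.05. It weighs the mean of each phenotype equally where groups are joined. The limma step was tested on simulated data with normal noise and large effects in the spindle lines alone. These held no outlying arrays such as that of C5N, so they do not show what limma could detect in these lines. Detection was set at 1 log2 unit above the median of 8 negative controls, of which 1 is bright. miRNAs were named by Pearson r with either strand (the 5 highest), and members of the keratinocyte list by smallest limma p. Hairpins were folded with RNAfold 2.7.2. Members and lists were chosen with earlier results of these data known. Alternatives were other scalings, a floor at detection, a filter on dim probes, array weights, the tumour as a block, and leaving out lines.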

Additional observations from a re-analysis of the deposited data

Results flagged for a closer look

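Of 8 sets of lines checked for a line far from the rest, 2 had one, where chance gives about 1 in 20. In miR-203, NK at 10.16 lay far above the other squamous lines, with a share of 0.563 of the range of all 8 squamous lines between it and C50. In miR-203*, CARB at 6.19 lay far below the other malignant lines, with a share of 0.662 of the range of the 8 malignant lines between it and D3. Without CARB the miR-203* difference was -0.43 in malignant minus non-malignant lines, -0.26 in spindle minus all squamous lines and 0.016 in spindle minus malignant squamous lines. Among the 5 non-malignant lines alone NK was not far enough from C50 to meet the limit for 5 values, and neither was CARB among the 5 spindle lines.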

How the results depend on the processing

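Quantile normalization and either A5 array alone left each difference in miR-203 and miR-203* in its direction and on its side of an adjusted p of 0.05. Scaling to U6-snRNA-2 or to the median of 99 widely detected probes shifted the median of all mouse probes in malignant minus non-malignant lines by -1.54 and -0.63, so differences under them are relative to these shifts. With widely detected probes, miR-203 passed in spindle minus non-malignant lines, at -1.61. For miR-203 in malignant minus non-malignant lines, raising levels to detection gave -0.65, which did not pass. miR-203* in spindle minus non-malignant lines no longer passed with U6 scaling (-1.77), widely detected probes (-1.11), the floor (-0.0063) or without C5N, MSCP1 and A5 (-0.57). miR-203* in malignant minus non-malignant lines no longer passed with U6 scaling (-2.03) or the floor (-0.028). The cause was not tested, except that the floor by construction removes differences below detection, and fewer lines allow only larger p. miR-203* turned to 0.018 in spindle minus all squamous lines with the floor, and in spindle minus malignant squamous lines it turned to 0.70 with U6 scaling, 0.024 with widely detected probes, 0.058 with the floor and 0.042 with the tumour as a block.

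Lines carry no replicate number shared between groups. The tumour block was run in spindle minus malignant squamous lines alone, on the lines that share a tumour. All other comparisons counted lines of a shared tumour as separate samples, so their p-values rest on fewer independent origins than lines. Leaving out 1 line at a time gave miR-203 differences of -1.32 to -0.49 in malignant minus non-malignant, -1.30 to -0.47 in spindle minus non-malignant, -1.34 to -0.51 in malignant squamous minus non-malignant, -0.74 to -0.26 in spindle minus all squamous and -0.038 to 0.11 in spindle minus malignant squamous lines. In the first 4 of these the value nearest 0 was that without NK. miR-203 in malignant minus non-malignant lines kept an adjusted p below 0.05 in 3 of these 13 fits, and in spindle minus non-malignant lines passed in 1, without MSCP1. For miR-203* the ranges were -0.56 to -0.35 (below 0.05 in 13 of 13), -0.59 to -0.37 (7 of 13), -0.51 to -0.30, -0.40 to -0.25 and -0.12 to 0.016 in the same order. Papilloma minus immortalized lines ranged from -2.05 to -0.56.

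limma called more than 0 probes in some settings. In spindle minus all squamous lines it called 2 with quantile normalization, 2 with U6 scaling, 5 with widely detected probes, 8 without C5N, MSCP1 and A5, 11 with array weights, whose fit did not converge, 7 with dim probes filtered out and 0 to 2 without 1 line. In spindle minus non-malignant lines these were 2, 7, 6, 7, 9, 6 and 0 to 1. In spindle minus malignant squamous lines it called 1 without C5N, MSCP1 and A5, 3 with array weights and 0 to 1 without 1 line. In malignant squamous minus non-malignant lines it called 8 with U6 scaling, among them miR-203 (-3.07, adjusted p = 0.0431). In malignant minus non-malignant lines it called 20 with U6 scaling, among them miR-203 (-2.67, adjusted p = 0.00589), 7 with widely detected probes, among them miR-203 (-1.67, adjusted p = 0.0144), 5 without the 3 lines and 7 with array weights. miR-203* was called in none of the fits that held it. The filter on dim probes kept only probes detected in at least 3 lines, so neither strand was in that fit. The number of arrays limits the precision, and 11 of 13 miR-203 levels and 12 of 13 miR-203* levels were not above detection.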
